A study of Bos taurus with 16 samples.

Results

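NOTCH1, NOTCH2, NOTCH3 and SOX21 were 4 of the 27607 Ensembl genes measured in the prefrontal cortex (PFC) of Lidia and Wagyu bulls. They were chosen by their expression difference between the breeds, since their symbols came from the study's own list of differing genes, and each symbol was paired with the gene at the identical chromosome, start and end. The difference between the breeds therefore chose these genes, and it is given below as a description without a test. The tests were kept for what that choice did not use directly. These were the Lidia farms, the transcript shares between those farms and the covariation of animals within a breed. The genes were also chosen with earlier results of these data known, so these tests are not fully independent of the choice.

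The 16 animals were non-castrated males with one library each, 8 of the Lidia breed, which is selected for agonistic behaviour, and 8 of the Wagyu breed, which is selected for meat quality and docility. Of the Lidia bulls, 4 were bred at the La Quinta farm and 4 at Montealto, and all Wagyu bulls came from a single farm, Nuestro Buey. The farm of each Lidia bull was read from the study's sample table by its animal number, and the bulls of each farm are called 1 to 4 in the order of those numbers. The Wagyu bulls keep the numbers of their labels (1, 3, 4, 5, 6, 7, 9 and 12). Age was 3 years for every bull except Montealto 4, which was 4 years old, and no animal carried an engineered allele or received an agent. The Lidia bulls had been incited to fight and were sampled at the bullring after a period of concentrate feeding, whereas the Wagyu bulls were fattened and sampled at an abattoir, so breed, farm of the Wagyu, diet, behaviour before death and place of sampling cannot be told apart.

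Notch receptors are single-pass membrane proteins that are activated by ligands of the Delta-like and Jagged families on a neighbouring cell. Ligand binding leads to cleavage by gamma-secretase, and the released intracellular domain switches on target genes such as those of the HES and HEY families. In the brain, NOTCH1 and NOTCH2 are known from neural progenitors and glia, and NOTCH3 is known from the smooth muscle cells and pericytes of blood vessels. SOX21 is a transcription factor of the SOXB group that acts in neural progenitors, where it counteracts the related SOXB1 factors, and it is not a component of the Notch cascade.

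The unit of every level below is FPKM (fragments per kilobase of transcript, scaled to the depth of the library), summed over the transcripts of a gene and rescaled between animals by the median of ratios over 15998 genes, so levels of different genes are compared per length. The scaling factor was 2.21 in Wagyu 5 and 1.78 in La Quinta 4 and between 0.617 and 1.13 in the other animals, and read coverage corresponded to 7.67 M fragments (M for mega) in Wagyu 5, 13.7 M in La Quinta 4 and 20.0 to 37.0 M in the others, at 200 bases per fragment. The named neuronal markers (5 of 8 listed) summed to 196 to 383 FPKM, and the named astrocyte markers (7 of 9) to 216 to 544 FPKM. Both are markers of neural tissue, and origin from the cortex itself was not tested. No named marker of any of the 8 cell type lists was at 0 in any animal. Wagyu 3 had the highest summed level among the Wagyu bulls in 6 of these lists (astrocyte, endothelial, mural, meningeal fibroblast, microglia and choroid plexus), so the breed differences of the 4 genes and the Wagyu correlations among them are also given without it. Wagyu 3 was also the highest Wagyu bull in each of the 4 genes, so leaving it out raises their breed differences. The range of each difference with any 1 bull left out is given with the alternatives below.

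The receptors are long genes of many exons, and SOX21 is a short gene of a single exon. On ARS-UCD1.2, NOTCH1 (ENSBTAG00000022799) lies on the minus strand of chromosome 11 from 103935364 to 103980160, with 2 annotated transcripts of 34 and 35 exons. NOTCH2 (ENSBTAG00000007909) lies on the plus strand of chromosome 3 from 23163504 to 23368572, with 4 transcripts of 33 or 34 exons. NOTCH3 (ENSBTAG00000043971) lies on the plus strand of chromosome 7 from 7910635 to 7950476, with 1 transcript of 33 exons. SOX21 (ENSBTAG00000022484) lies on the minus strand of chromosome 12 from 69202956 to 69203789, as 1 exon of 834 bases. No other annotated gene overlaps any of the 4 loci.

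NOTCH1, a receptor known from neural progenitors, was low in all but 1 Wagyu bull and higher in every Lidia bull than in the remaining 7. Rescaled FPKM of NOTCH1 ran from 0.427 to 1.63 in the Wagyu bulls, with a median of 0.794. It was 1.47, 1.93, 2.55 and 1.75 in La Quinta bulls 1, 2, 3 and 4. In Montealto bulls 1, 2, 3 and 4 it was 2.26, 1.5, 2.65 and 1.7. The highest Wagyu value belonged to Wagyu 3, the only Wagyu bull that reached into the Lidia range, and the next highest was 1.03 in Wagyu 7. The Lidia mean was 1.97 ± 0.459 (SD, n = 8) and the Wagyu mean 0.855 ± 0.366 (SD, n = 8), a ratio of 2.31, and the log2 difference was 1.17 ± 0.20 (SE). It was 1.31 without Wagyu 3.

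NOTCH2, a receptor closely related to NOTCH1, overlapped widely between the breeds. Its rescaled FPKM in the Wagyu bulls was 0.398 at the lowest, 0.621 at the median and 1.19 at the highest, again in Wagyu 3. It was 0.351, 1.22, 1.88 and 1.30 in La Quinta bulls 1, 2, 3 and 4. In Montealto bulls 1, 2, 3 and 4 it was 1.88, 0.787, 1.65 and 0.743. The Lidia bulls thus held both the highest values and, in La Quinta 1, the lowest value of all 16 animals, and 5 of the 8 exceeded every Wagyu bull. The mean was 1.23 ± 0.565 (SD, n = 8) in Lidia and 0.705 ± 0.261 (SD, n = 8) in Wagyu, with a log2 difference of 0.64 ± 0.29 (SE), or 0.74 without Wagyu 3.

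NOTCH3, the receptor of vascular mural cells, had the highest median of the 4 per length in both breeds and was the most even among the Lidia bulls. Its rescaled FPKM in the Wagyu bulls ranged from 1.10 to 2.53 with a median of 1.43. La Quinta bulls 1, 2, 3 and 4 had 2.18, 2.33, 2.7 and 2.05. Montealto bulls 1, 2, 3 and 4 had 2.11, 2.56, 2.31 and 2.02. As for NOTCH1, every Lidia bull lay above every Wagyu bull other than Wagyu 3, whose 2.53 was exceeded by 2 Lidia bulls. The coefficient of variation was 10.7% in Lidia against 30.8% in Wagyu. The Wagyu figure includes Wagyu 3 at 2.53, whereas the other Wagyu bulls ran from 1.10 to 1.68. The log2 difference between the breeds was 0.61 ± 0.14 (SE), or 0.72 without Wagyu 3.

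SOX21 was the gene of the 4 with the largest difference between the breeds and the one without overlap. Its rescaled FPKM in the Wagyu bulls ran from 0.36 to 0.95, with a median of 0.76. La Quinta bulls 1, 2, 3 and 4 had 1.35, 2.01, 2.61 and 2.11. Montealto bulls 1, 2, 3 and 4 had 2.99, 1.37, 3.55 and 1.01. The gap between the groups was narrow, because Montealto 4 with 1.01 stood next to Wagyu 3 with 0.95, and the deposited Cufflinks intervals of these 2 animals, 0.65 to 1.36 and 0.669 to 1.23 after rescaling, overlapped. The mean was 2.12 ± 0.883 (SD, n = 8) in Lidia and 0.69 ± 0.209 (SD, n = 8) in Wagyu, a ratio of 3.08, and the log2 difference was 1.44 ± 0.24 (SE), or 1.51 without Wagyu 3.

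**Figure D1:**
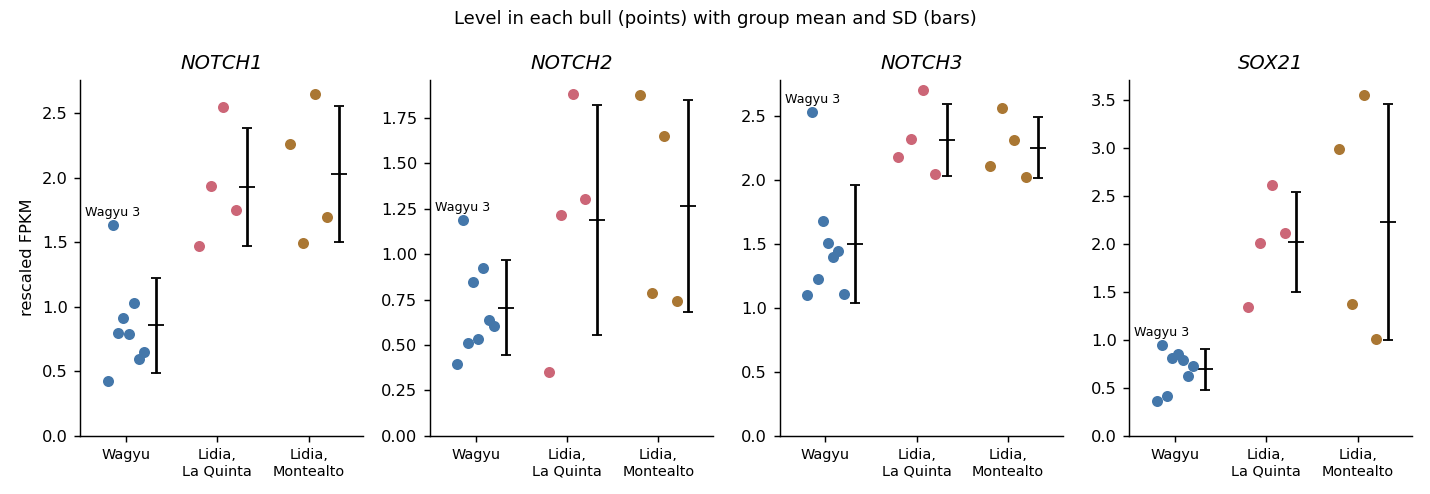
Rescaled FPKM (vertical axes, from 0) of NOTCH1, NOTCH2, NOTCH3 and SOX21 in each bull (points), in the 8 Wagyu, 4 La Quinta and 4 Montealto bulls; horizontal marks and bars give the group mean and SD. Wagyu 3 is labelled and reaches 1.63 for NOTCH1 and 2.53 for NOTCH3, inside the Lidia range, whereas for SOX21 it stays at 0.95, below all Lidia points.

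Across all genes tested, 4.99% of 16577 were called between the breeds with the thresholds used here (limma adjusted p of at most 0.05 and absolute log2 difference of at least 0.1), and 3.33% were called higher in Lidia. NOTCH1, NOTCH3 and SOX21 were among them and NOTCH2 was not, a count of 3 of 4 from which nothing is read since the breed contrast chose the genes. Complete separation with every Lidia bull above every Wagyu bull, as seen for SOX21, occurred in 0.386% of genes. With Wagyu 3 set aside it occurred in 1.37% of genes, NOTCH1, NOTCH3 and SOX21 included. In bulk tissue fewer cells of a type and less RNA per cell cannot be told apart.

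The precision of these levels differed between the long receptors and the short SOX21. Read as a counting interval, the half-width deposited for each transcript corresponded to 126 to 695 fragments for NOTCH1 in the Wagyu bulls and 254 to 842 in the Lidia bulls. For NOTCH3 it corresponded to 344 to 1556 fragments in Wagyu and 490 to 1242 in Lidia. SOX21 rested on far fewer, 9 in Wagyu 1 to 45.8 in Wagyu 3, and 21 in Montealto 2 to 143 in Montealto 3. All these numbers depend on that reading of the interval, which is an assumption. It was checked on 6718 low fragment numbers from genes with 1 transcript of 1 exon, of which 42.2% lay within 0.05 of a whole number. The receptors, with many exons and higher numbers, were outside that check. Counting alone would spread SOX21 by 0.32 on the log2 scale (SD) among Wagyu bulls, where the observed SD was 0.43, and by 0.20 among Lidia bulls, where it was 0.60. For NOTCH1 the counting SD was 0.06 in Lidia and 0.09 in Wagyu against observed SDs of 0.31 and 0.51. These figures cover counting error only, and none was computed for NOTCH2, whose transcripts share their reads. The counting SDs were taken without the 0.1 that was added to FPKM for the observed SDs. That addition narrows the observed SD of low genes, so counting and observed SDs are not on quite the same scale.

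The order of the 4 levels was read from the medians per breed. In the Wagyu bulls NOTCH3 had the highest median (1.43), and it exceeded NOTCH1 in 8 of 8 animals. NOTCH1 (0.794), SOX21 (0.76) and NOTCH2 (0.621) followed, and these neighbours were not separated beyond their spread, since NOTCH1 exceeded SOX21 in 5 of 8 and SOX21 exceeded NOTCH2 in 2 of 8 bulls. In the Lidia bulls SOX21 (median 2.06) stood between NOTCH3 (2.25) and NOTCH1 (1.84), being exceeded by NOTCH3 in 5 of 8 bulls and exceeding NOTCH1 in 5 of 8, and NOTCH1 exceeded NOTCH2 (1.26) in 8 of 8.

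The 2 Lidia farms overlapped in all 4 genes, and the mean of each farm lay above that of Wagyu. Against the 8 Wagyu bulls the log2 difference of SOX21 was 1.44 ± 0.31 (SE) for La Quinta and 1.44 ± 0.31 for Montealto. For NOTCH1 the values were 1.14 ± 0.25 and 1.2 ± 0.25. They were 0.63 ± 0.17 and 0.59 ± 0.17 for NOTCH3, and 0.56 ± 0.36 and 0.72 ± 0.36 for NOTCH2. Both comparisons share the same Wagyu bulls and the choice of genes, so they are descriptions too.

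Between La Quinta and Montealto, a contrast that the choice of genes did not use directly, 0 of the 4 genes was called by limma (adjusted over 16577 genes). In all, 15 genes or 0.0905% were called there. None of the 4 had an unadjusted limma p under 0.05, as 5.89% of all genes had. The log2 difference (La Quinta minus Montealto) of NOTCH1 was -0.06 with a 95% interval of -0.69 to 0.56 (limma adjusted p = 0.975, exact permutation p = 0.771). That of NOTCH2 was -0.16, from -1.05 to 0.72 (limma adjusted p = 0.947, exact permutation p = 0.829). NOTCH3 differed by 0.04, from -0.39 to 0.46 (limma adjusted p = 0.98, exact permutation p = 0.714). The SOX21 difference was -0.0016, from -0.76 to 0.75 (limma adjusted p = 1, exact permutation p = 1). The permutation tests were two-sided over the 70 splits of 8 bulls, and their smallest possible p was 0.0286. The intervals of NOTCH1, NOTCH2 and SOX21 reach beyond 0.5 in both directions, so a difference of that size between the farms was not detectable with 4 bulls each.

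**Figure D2:**
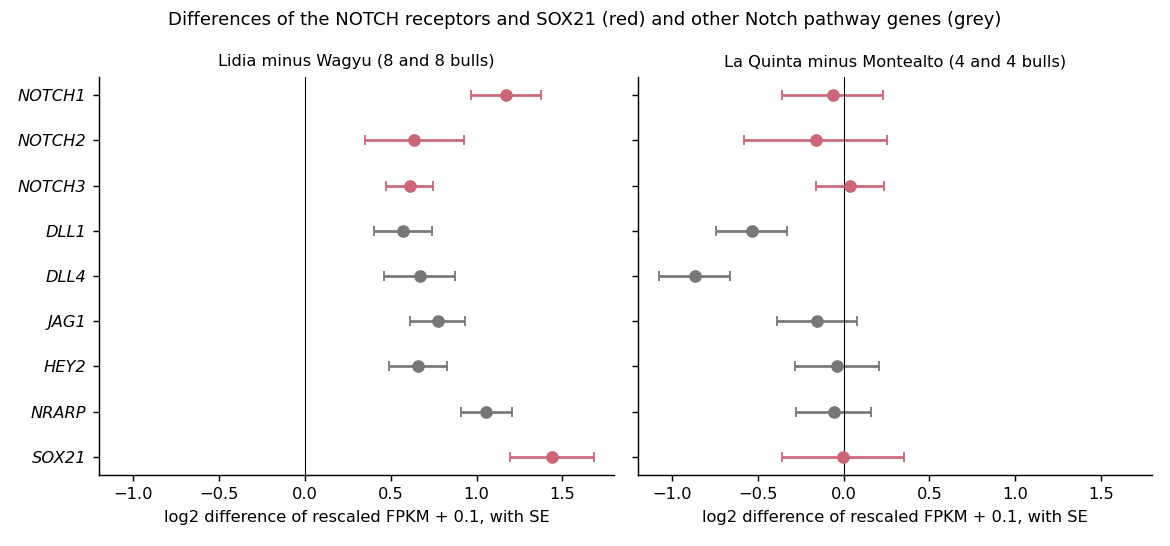
Log2 differences of rescaled FPKM + 0.1 (horizontal axes) with SE for NOTCH1, NOTCH2, NOTCH3 and SOX21 (red) and 5 other Notch pathway genes (grey), Lidia minus Wagyu on the left and La Quinta minus Montealto on the right. On the left SOX21 lies highest at 1.44; on the right the 4 genes in red lie between -0.16 and 0.04, and DLL1 and DLL4 lie lowest.

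Of 38 genes considered for the Notch pathway (receptors, ligands, proteases, modifiers, nuclear partners and targets), 8 had a symbol, and all came from the study's list of breed differences, so that their breed values are descriptions as well. The 3 ligands were higher in Lidia, with log2 differences of 0.57 ± 0.17 (SE) for DLL1, 0.67 ± 0.21 for DLL4, which is known from endothelial cells, and 0.77 ± 0.16 for JAG1, whose locus overlaps another gene on the opposite strand. DLL1 and DLL4 were not called and JAG1 was. Both named targets were higher and called. HEY2, a repressor of the basic helix-loop-helix class, differed by 0.66 ± 0.17 (SE), or 0.79 without Wagyu 3 (1.37 FPKM), the only Wagyu bull that overlapped with Lidia. NRARP, a short ankyrin repeat protein that limits Notch signalling, ranged from 3.24 to 6.39 FPKM in Lidia and from 1.66 to 3.31 in Wagyu, with a log2 difference of 1.06 ± 0.15 (SE).

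Between the farms 0 of these 5 other genes was called. DLL4 was lower in La Quinta, with 0.727, 0.914, 0.583 and 0.607 FPKM in bulls 1, 2, 3 and 4. Montealto bulls 1, 2, 3 and 4 had 1.02, 1.96, 1.5 and 1.12. The farms did not overlap in DLL4, and the log2 difference was -0.87 ± 0.21 (SE), which did not pass over all genes (limma adjusted p = 0.318, exact permutation p = 0.0286). The farms did not overlap in DLL1 either, with a log2 difference of -0.54 ± 0.21 (SE, limma adjusted p = 0.763, exact permutation p = 0.0286). Farms that do not overlap were found in 3.6% of all genes. Summed oligodendrocyte lineage markers (10 of 13 named) were 126 to 182 FPKM in La Quinta. In Montealto they were 394 in bull 2 and 178 to 187 in the others, so the farms overlapped. Farm log2 differences of these markers ran from -1.17 ± 0.32 (SE) for OPALIN to 0.00097 ± 0.19 for OLIG2. TTR, the 1 named choroid plexus marker of 4, was 1.05 to 1.78 in La Quinta and 7.51 to 18.8 in Montealto. Summed endothelial markers were 36.1 to 43.7 in La Quinta and 33.1 to 116 in Montealto, and summed microglial markers 13.2 to 15.6 and 14.9 to 26.1, with Montealto 2 the highest in both. The 3 named microglial markers differed in size and sign. TMEM119 had a log2 difference of -1.39 ± 0.32 (SE, limma adjusted p = 0.274). That of AIF1 was -0.65 ± 0.28 (SE, limma adjusted p = 0.819). CX3CR1 went the other way, with 0.16 ± 0.37 (SE, limma adjusted p = 0.939). The part of these markers in the DLL1 and DLL4 values was not tested.

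Covariation among animals of one breed was tested next. Within each breed, Pearson's r was computed for the 6 pairs of genes on log2(rescaled FPKM + 0.1), with exact two-sided permutation over the 40320 orderings of 8 bulls and Benjamini-Hochberg adjustment over the 12 values. Of these, 7 passed an adjusted p of 0.05, 3 of 6 in Lidia and 4 of 6 in Wagyu. With Spearman's rho 4 of 12 passed. For each of the 4, 16576 genes were ordered by their likeness in deviations about the breed means over 16 animals. For NOTCH1, NOTCH2 ranked 174, NOTCH3 ranked 353 and SOX21 ranked 365. For NOTCH2, SOX21 ranked 172, NOTCH1 ranked 279 and NOTCH3 ranked 3051. For NOTCH3, NOTCH1 ranked 48, NOTCH2 ranked 970 and SOX21 ranked 1203. For SOX21, NOTCH2 ranked 29, NOTCH1 ranked 184 and NOTCH3 ranked 2996. Each of the 4 thus had closer genes outside the set.

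In the Lidia bulls the 3 pairs among NOTCH1, NOTCH2 and SOX21 passed, and the 3 pairs with NOTCH3 did not. NOTCH1 and SOX21 had r = 0.87 (exact permutation p = 0.00794, adjusted p = 0.0241) and rho = 0.88 (exact permutation p = 0.00724, adjusted p = 0.029). NOTCH1 and NOTCH2 had r = 0.86 (exact permutation p = 0.00516, adjusted p = 0.0241) and rho = 0.88 (exact permutation p = 0.00724, adjusted p = 0.029). The pair NOTCH2 and SOX21 had r = 0.83 (exact permutation p = 0.01, adjusted p = 0.0241) and rho = 0.88 (exact permutation p = 0.00724, adjusted p = 0.029). Montealto 1, Montealto 3 and La Quinta 3 were the 3 highest in each of these genes. After the 2 bulls farthest from the median on the first gene were left out, r was 0.80 for NOTCH1 with SOX21, 0.87 for NOTCH1 with NOTCH2 and 0.91 for NOTCH2 with SOX21. Within the farms, from deviations about each farm's mean permuted within farm, r was 0.87 for NOTCH1 with SOX21 (exact permutation p = 0.0243, adjusted p = 0.0486), 0.84 for NOTCH2 with SOX21 (exact permutation p = 0.00868, adjusted p = 0.0362) and 0.86 for NOTCH1 with NOTCH2, which no longer passed (exact permutation p = 0.0312, adjusted p = 0.0536).

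The 3 pairs with NOTCH3 in Lidia had r = 0.29 with NOTCH1 (exact permutation p = 0.481, adjusted p = 0.577; rho = 0.26, exact permutation p = 0.536, adjusted p = 0.536), 0.24 with NOTCH2 (exact permutation p = 0.579, adjusted p = 0.589; rho = 0.33, exact permutation p = 0.428, adjusted p = 0.513) and 0.22 with SOX21 (exact permutation p = 0.589, adjusted p = 0.589; rho = 0.26, exact permutation p = 0.536, adjusted p = 0.536). Without the 2 bulls farthest from the median these r were -0.34, -0.17 and 0.49. Without Montealto 2 alone, chosen after seeing the data, they were 0.63, 0.40 and 0.45 over 7 bulls, and with upper-quartile rescaling 0.53, 0.43 and 0.41, and in neither did any of the 3 pass. The size of these r thus rested on single bulls and on the scaling. NOTCH3 varied little among these bulls, with an SD of 0.14 on the log2 scale. Whether these r differ from those of the other pairs was not tested.

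In the Wagyu bulls NOTCH3 moved with the other receptors, but these values leaned on Wagyu 3. NOTCH1 and NOTCH2 had r = 0.89 (exact permutation p = 0.00298, adjusted p = 0.0241; rho = 0.76, exact permutation p = 0.0368, adjusted p = 0.0864), NOTCH1 and NOTCH3 r = 0.85 (exact permutation p = 0.0097, adjusted p = 0.0241; rho = 0.67, exact permutation p = 0.0831, adjusted p = 0.111). NOTCH2 and NOTCH3 had r = 0.82 (exact permutation p = 0.0121, adjusted p = 0.0242; rho = 0.71, exact permutation p = 0.0576, adjusted p = 0.0864), and NOTCH2 and SOX21 r = 0.78 (exact permutation p = 0.0234, adjusted p = 0.0401; rho = 0.71, exact permutation p = 0.0576, adjusted p = 0.0864). The pair NOTCH1 and SOX21 (r = 0.72, exact permutation p = 0.0409, adjusted p = 0.0613; rho = 0.71, exact permutation p = 0.0576, adjusted p = 0.0864) and the pair NOTCH3 and SOX21 (r = 0.69, exact permutation p = 0.0584, adjusted p = 0.0779; rho = 0.86, exact permutation p = 0.0107, adjusted p = 0.0321) did not pass on Pearson's r. Without the 2 bulls farthest from the median on the first gene the 6 values fell to between 0.28 and 0.62. Without Wagyu 3 alone they were between 0.62 and 0.79 over 7 bulls, and 0 of the 6 passed (smallest exact permutation p = 0.0329, adjusted p = 0.0988).

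**Figure D3:**
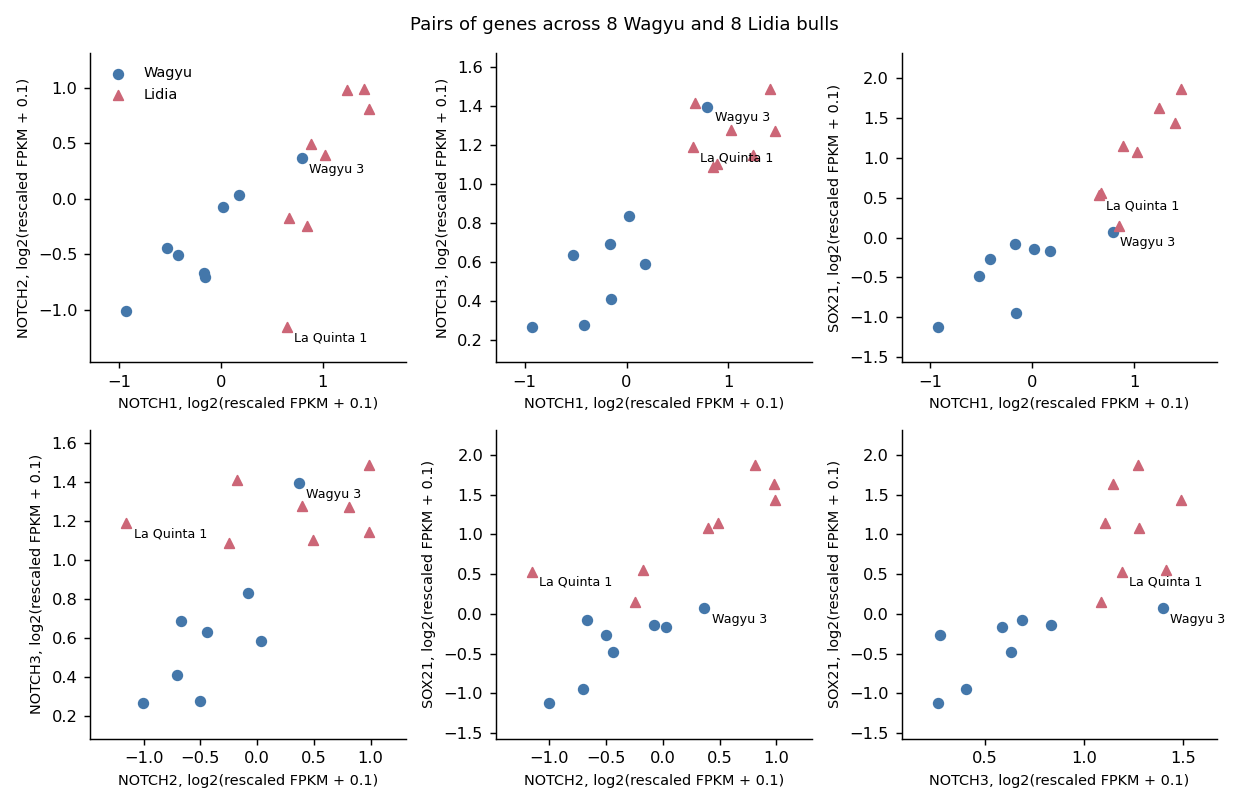
Log2(rescaled FPKM + 0.1) of each pair among NOTCH1, NOTCH2, NOTCH3 and SOX21 in 8 Wagyu bulls (circles) and 8 Lidia bulls (triangles), with Wagyu 3 and La Quinta 1 labelled. In the panels of NOTCH1, NOTCH2 and SOX21 the Lidia points rise together (r from 0.83 to 0.87), in the panels with NOTCH3 r runs from 0.22 to 0.29 (0.40 to 0.63 without Montealto 2), and Wagyu 3 lies at the top of the Wagyu points.

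All values of one bull come from 1 library and share its scaling factor. With that factor on the log2 scale the 4 genes had r between -0.70 and 0.55 within the breeds, and 0 of the 8 values passed (smallest adjusted p = 0.397 for Pearson's r and 0.123 for Spearman's rho, exact permutation). Unadjusted p was under 0.05 in Wagyu for NOTCH1 (rho = 0.83, exact permutation p = 0.0154) and NOTCH2 (rho = 0.74, exact permutation p = 0.0458). It was also under 0.05 for NOTCH3 in Lidia (r = -0.70, exact permutation p = 0.0497). In Wagyu the 4 r ran from 0.34 to 0.55, and in Lidia from -0.70 to 0.18. The part of the factor in the correlations among the genes was not tested. On the FPKM as deposited, where the factor is left in, 11 of the 12 pairs of genes passed.

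Against the other 5 pathway genes 0 of 40 values within breed passed (smallest adjusted p = 0.373, exact permutation), with 2 at an unadjusted p under 0.05. The largest r was 0.88 between NOTCH3 and the target HEY2 in Wagyu (exact permutation p = 0.017, adjusted p = 0.373; rho = 0.69, exact permutation p = 0.0694, adjusted p = 0.694), and it was 0.31 without the 2 bulls farthest from the median. The same pair had r = 0.56 in Lidia (exact permutation p = 0.154, adjusted p = 0.509; rho = 0.52, exact permutation p = 0.197, adjusted p = 0.694). NRARP had r = 0.67 with NOTCH1 (exact permutation p = 0.0615, adjusted p = 0.373; rho = 0.67, exact permutation p = 0.0831, adjusted p = 0.694) and 0.65 with SOX21 (exact permutation p = 0.0759, adjusted p = 0.379; rho = 0.64, exact permutation p = 0.0962, adjusted p = 0.694) in Lidia. In Wagyu the r of NRARP was 0.53 with NOTCH1 and -0.16 with SOX21, and with NOTCH3 it was -0.50 in Lidia and 0.30 in Wagyu, none past the adjustment.

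The summed levels of cell type markers in each breed were as follows, as a description with no test of a list, and every marker with a symbol came from the study's list of breed differences. Summed astrocyte markers ran from 356 to 544 FPKM in Lidia and from 216 to 542 in Wagyu. Endothelial markers (7 of 9 named) summed to 33.1 to 116 in Lidia and 17.0 to 39.2 in Wagyu, and mural markers (2 of 8) to 8.75 to 29.8 and 4.12 to 23.4. Meningeal fibroblast markers (10 of 11) summed to 15.6 to 95.9 and 6.87 to 31.0, and microglial markers (3 of 6) to 13.2 to 26.1 and 6.33 to 14.5. Neuronal markers summed to 196 to 294 in Lidia and 239 to 383 in Wagyu. Oligodendrocyte lineage markers summed to 126 to 394 in Lidia and 90.8 to 262 in Wagyu, and TTR ran from 1.05 to 18.8 and from 0.154 to 9.37. The groups overlapped in each of these lists. In the astrocyte, endothelial and microglial lists Wagyu 3 was the only Wagyu bull that overlapped with Lidia. The other Wagyu bulls reached at most 320, 30.2 and 13.1 there, below the lowest Lidia bulls at 356, 33.1 and 13.2. The part of the marker levels in the breed values of the 4 genes was not tested.

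Within the breeds, 0 of 64 correlations between the 4 genes and the 8 marker lists passed (smallest adjusted p = 0.564 for Pearson's r and 0.908 for Spearman's rho, exact permutation), with 3 at an unadjusted p under 0.05. In Lidia the largest was NOTCH2 with the meningeal fibroblast list (r = 0.75, exact permutation p = 0.0302, adjusted p = 0.564; rho = 0.74, exact permutation p = 0.0458, adjusted p = 0.908), and r was 0.71 without the 2 bulls farthest from the median. In Wagyu the largest were NOTCH3 with the endothelial list (r = 0.80, exact permutation p = 0.0266, adjusted p = 0.564; rho = 0.67, exact permutation p = 0.0831, adjusted p = 0.908) and NOTCH1 with the same list (r = 0.76, exact permutation p = 0.0333, adjusted p = 0.564; rho = 0.50, exact permutation p = 0.216, adjusted p = 0.908). Without the 2 farthest bulls these were 0.86 and 0.43. The mural list with NOTCH3 had r = 0.72 in Wagyu (exact permutation p = 0.0526, adjusted p = 0.564; rho = 0.62, exact permutation p = 0.115, adjusted p = 0.908) and 0.24 in Lidia (exact permutation p = 0.567, adjusted p = 0.854; rho = 0.29, exact permutation p = 0.501, adjusted p = 0.908). SOX21 had r = 0.62 with the astrocyte list in Lidia (exact permutation p = 0.0991, adjusted p = 0.564; rho = 0.71, exact permutation p = 0.0576, adjusted p = 0.908) and 0.23 in Wagyu (exact permutation p = 0.577, adjusted p = 0.854; rho = 0.19, exact permutation p = 0.665, adjusted p = 0.908).

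**Figure D4:**
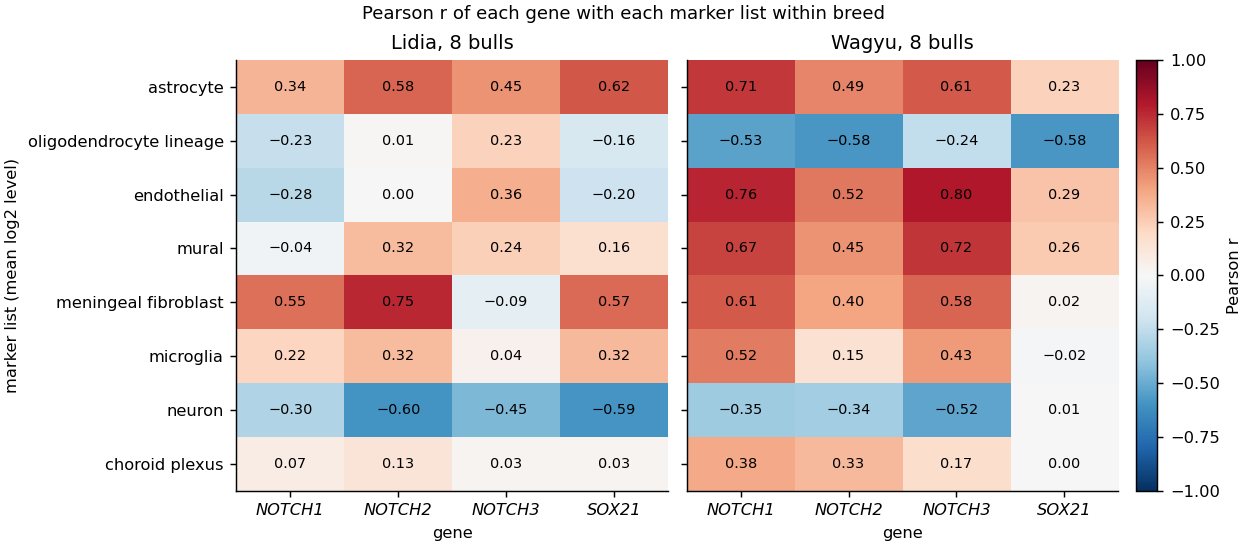
Pearson's r (colour and number) of NOTCH1, NOTCH2, NOTCH3 and SOX21 (columns) with the mean log2 level of the named markers of 8 cell type lists (rows), in the 8 Lidia bulls on the left and the 8 Wagyu bulls on the right. The values run from -0.60 to 0.80, and none passed the adjustment over the 64.

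The named genes most alike to each of the 4 were found from deviations about the breed means over 16 animals, as a description, among 1154 genes with a symbol, all of them from the study's list. Closest to NOTCH1 were PAQR7, a membrane progestin receptor (r = 0.90), the homeobox gene DBX2 (0.88), the sodium pump subunit gene ATP1B2 (0.87), the cationic amino acid transporter gene SLC7A2 (0.87) and the lectin receptor gene CD302 (0.87). Closest to NOTCH2 were SEMA6A (0.89) and BMP7 (0.88), whose loci each overlap another gene, then SLC7A2, BICC1 and the glucocorticoid receptor gene NR3C1 (0.88 each). NOTCH3 was most like the actin-linked genes VCL (0.85) and FLNA (0.74), CCDC141 (0.82), HEY2 (0.77) and FNDC3B (0.77). These r were lower in Lidia, from 0.30 for CCDC141 and 0.46 for VCL to 0.56 for HEY2, than in Wagyu, where they ran from 0.81 for FLNA to 0.93 for CCDC141 and VCL and include Wagyu 3; the difference was not tested. SOX21 was most like CD302 (0.88), NOTCH2 (0.81), the laminin gene LAMA1 (0.80), GAREM2 (0.80) and SLC7A2 (0.79). SLC7A2 was thus on the lists of NOTCH1, NOTCH2 and SOX21, and NOTCH3 shared no gene with them. Among all 16576 genes compared, most without a symbol, CD302 ranked 2 for SOX21, PAQR7 ranked 5 for NOTCH1 and VCL ranked 5 for NOTCH3.

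The estimated transcript shares behind the gene levels were even between bulls for NOTCH1 and uneven for NOTCH2. The transcript ENSBTAT00000017746 of NOTCH1 (34 exons, 8190 bases) held at least 99.98% of the gene's FPKM in every bull but Montealto 3, where it held 96.1% and the transcript of 35 exons held 3.87%. Both are built from the same 8082 bases apart from 108 bases that ENSBTAT00000017746 alone holds.

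NOTCH2 has 4 annotated transcripts of 7542 to 7776 bases that share 7027 bases, which is 90.4 to 93.2% of each. ENSBTAT00000074376, ENSBTAT00000082247 and ENSBTAT00000085176 have 0 bases of their own. The shares below are thus estimates by Cufflinks from reads that these transcripts mostly share. How well the estimates separate the transcripts was not tested. ENSBTAT00000010400 is the 1 that starts upstream, at 23163504, with 238 bases of its own. This transcript had the largest share in 5 of 8 Wagyu and 4 of 8 Lidia bulls. Its share ran from 0.0769 to 99.99% in Wagyu, with a median of 71.3%, and from 13.3 to 67.2% in Lidia, with a median of 48.2%. ENSBTAT00000074376 led in 1 Wagyu and 2 Lidia bulls, ENSBTAT00000085176 in 1 and 2, and ENSBTAT00000082247 in 1 and 0. In Wagyu 1 and Wagyu 12 a single transcript held nearly all of the FPKM, and in La Quinta 2 all 4 held over 10%. Between the farms no share of NOTCH1 or NOTCH2 passed (exact permutation, smallest adjusted p = 0.514 over 6 transcripts). The largest farm differences were in NOTCH2, where the mean share of ENSBTAT00000074376 differed by -27.9 percentage points (La Quinta minus Montealto, exact permutation p = 0.2). ENSBTAT00000085176 held 31.4% ± 25.1 (SD, n = 4) in La Quinta and 9.18% ± 11.8 (SD, n = 4) in Montealto (exact permutation p = 0.2).

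**Figure D5:**
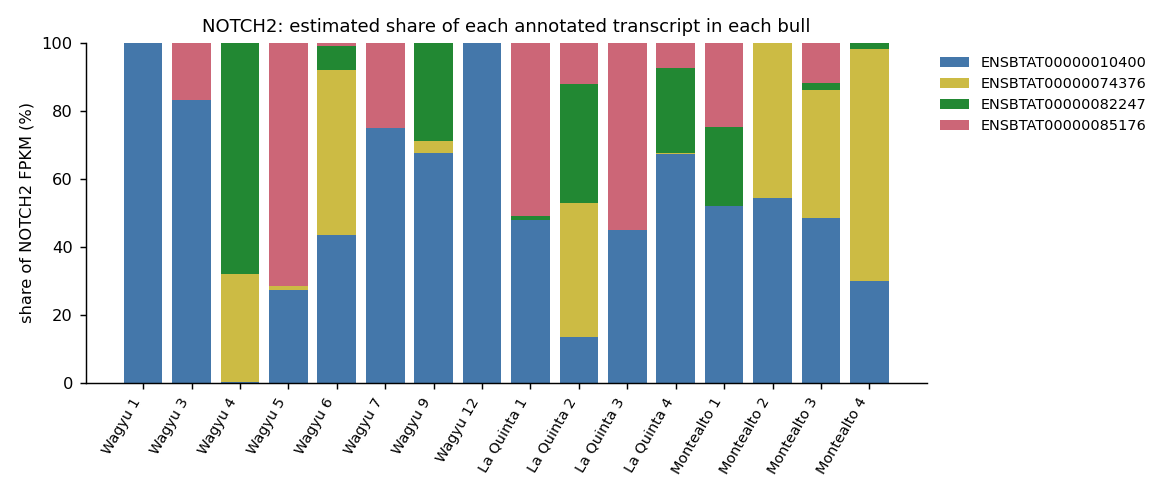
Share of NOTCH2 FPKM (vertical axis, percent) assigned to each of its 4 annotated transcripts (colours) in each of the 16 bulls (bars). No transcript leads throughout: ENSBTAT00000010400 leads in 9 bulls and holds 0.0769% in Wagyu 4.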

How the data were processed

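Paired-end RNA-seq was done on the PFC of 16 bulls, 8 per breed. Reads were trimmed by the authors (PRINSEQ), aligned to ARS-UCD 1.2 with STAR 2.7.3a and the Ensembl annotation, sorted with SAMtools 0.1.18, and turned into transcript abundances by Cufflinks 2.2.1. The deposited values, 1 table per animal, are FPKM of 43984 transcripts with a confidence interval and a read coverage. No read counts were used, so precision was read from interval and coverage and covers counting error only. The mRNA library kit keeps strand, and whether Cufflinks used it is not given in the sources used here.

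FPKM were summed per gene, divided by a median-of-ratios factor (15998 genes above 0 in all animals), kept at a mean of at least 0.1 (16577 genes) and fitted on log2(FPKM + 0.1), which understates differences of low genes, with limma 3.58.1 in R 4.3.3 (variance trend, two-sided, Benjamini-Hochberg adjustment): 2 breed groups for the breeds, 3 farm groups sharing 1 spread for the farms. A gene was called at adjusted p ≤ 0.05 with a log2 difference of 0.1 or more in size. Permutation tests were exact (Python 3.11.15, numpy 2.4.6, scipy 1.17.1, pandas 2.3.3). Fits and permutation tests were tested on simulated data.

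Symbols came from the gene sheet of the study by identical coordinates (1159 genes), so other Notch pathway genes and markers are not analysed here, and no sequence is given. One gene of the pathway list is not reported here, and counts over that list leave it out. Genes named are the 4 genes, listed pathway genes and markers with a symbol, and the 5 most alike per gene. The members and lists were chosen with earlier results of these data known. Alternatives covered scaling, pseudocount, filter, variance model, coefficient and left-out animals.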

Additional observations from a re-analysis of the deposited data

Results flagged for a closer look

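Dixon's test at the 95% level was applied to the log2 level of the 4 genes and the 5 other pathway genes in each breed and each Lidia farm, 36 groups of values, and singled out 3, where chance gives about 1 in 20. None concerned NOTCH1, NOTCH2, NOTCH3 or SOX21. Wagyu 3 stood apart from the other Wagyu bulls in JAG1, at 2.10 rescaled FPKM (gap over range 0.725), and in HEY2, at 1.37 (gap over range 0.614). Montealto 2 stood apart from the other Montealto bulls in DLL1, at 3.00 (gap over range 0.877). Wagyu 3 was also the highest Wagyu bull in all 4 genes and in 6 marker lists, and Montealto 2 was the highest Lidia bull in the astrocyte, oligodendrocyte lineage, endothelial, mural, microglial and choroid plexus lists.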

How the results depend on the processing

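The log2 difference between the breeds kept its sign for each of the 4 genes under all alternatives run, and with a pseudocount of 1 it fell to 0.69 for NOTCH1 and 0.85 for SOX21. With any 1 bull left out it ran from 1.07 to 1.31 for NOTCH1 and from 0.53 to 0.84 for NOTCH2. The range was 0.56 to 0.72 for NOTCH3 and 1.32 to 1.57 for SOX21. For NOTCH1 and NOTCH3 the upper end was the value without Wagyu 3. The genes called between the breeds over the whole table (827) numbered 0 on the FPKM as deposited, where 1022 had an unadjusted p under 0.05, 3088 with array weights, 239 without Wagyu 5 and La Quinta 4, and 364 (without Wagyu 12) to 1425 (without Wagyu 3) with 1 animal left out. Genes called between the farms (15) numbered 6 on the FPKM as deposited, 8 at a mean FPKM of at least 1, 54 with array weights, 7 in the Lidia bulls alone, 8 without Wagyu 5 and La Quinta 4 (chosen after seeing the data), and 6 to 14 with 1 animal left out. Without rescaling the median log2 difference of all genes between the farms was 0.32, and the farm differences of NOTCH1, NOTCH2 and SOX21 turned to 0.27, 0.15 and 0.33; a pseudocount of 0.01 gave 0.0054 for SOX21. With 1 animal left out they ran from -0.20 to 0.072 (NOTCH1), -0.43 to 0.28 (NOTCH2), -0.037 to 0.096 (NOTCH3) and -0.30 to 0.27 (SOX21), and none was called in any alternative. Of the 12 correlations among the 4 genes within breed, 7 passed, 11 on the FPKM as deposited, 4 with Spearman's rho, and 3 without Wagyu 3 and 7 without Montealto 2 (both chosen after seeing the data). Without the 2 farthest bulls r turned to -0.34 for NOTCH1 with NOTCH3 and -0.17 for NOTCH2 with NOTCH3 in Lidia. The cause of these changes was not tested. No transcript share passed between the farms under any alternative run. No paired analysis was possible because the breeds share no replicate numbers. Counting error (SD) was 0.20 (Lidia) and 0.32 (Wagyu) on the log2 scale for SOX21, was not computed for NOTCH2, and each farm held 4 bulls.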
